A study of Macaca fascicularis with 16 samples.

Results

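The 10 genes described here, of 14133 that the array names, mark the cells that line vessels: VWF, TEK, EMCN, CLDN5, EGFL7, RAMP2 and ERG for blood vessels, and PROX1, LYVE1 and MMRN1 for lymphatic vessels. All probe sets to which the platform's annotation gives 1 of these symbols alone were taken, 21 of the 52865 on the array, of which 13 belong to the 7 blood vessel genes and 8 to the 3 lymphatic genes. Mammary tissue of 16 ovariectomized, postmenopausal female cynomolgus macaques (Macaca fascicularis) was measured on 1 Affymetrix rhesus macaque array per animal. The groups of 4 animals each received tibolone at 0.2 mg/kg, which the sample titles call OD14-HIGH, conjugated equine estrogens (CEE) at 0.042 mg/kg with medroxyprogesterone acetate (MPA) at 0.167 mg/kg, CEE alone at 0.042 mg/kg, or no treatment. Tibolone is a synthetic steroid whose metabolites act on estrogen, progestogen and androgen receptors, CEE is an estrogen mixture from horse urine, and MPA is a synthetic progestin. All 4 groups, the controls included, lack ovaries, and neither the length of treatment nor the animals' ages were given in the sources used. Probes designed for rhesus sequences were hybridised with cynomolgus RNA.

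Endothelial cells form the inner wall of all vessels, and blood and lymphatic endothelium share an origin but follow separate programs. ERG is a transcription factor that maintains blood endothelial identity, TEK (TIE2) is the receptor for angiopoietins, and RAMP2 is the partner that turns the calcitonin receptor-like receptor into a receptor for adrenomedullin. CLDN5 seals tight junctions between endothelial cells, EMCN is a sialomucin of capillary and venous surfaces, VWF is the stored glycoprotein that tethers platelets, and EGFL7 is secreted by endothelium. PROX1 is the transcription factor that specifies lymphatic identity, LYVE1 is a hyaluronan receptor of lymphatic capillaries that some tissue macrophages also carry, and MMRN1 (multimerin) is a secreted glycoprotein of lymphatic endothelium and of platelets. In the mammary gland, vessels lie in the fat and the connective tissue around ducts and lobules. The arrays measured whole tissue, in which fewer cells of a type and less RNA per cell cannot be told apart.

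Values below are scaled signals, the deposited linear intensities, in the order of replicates 1 to 4, and a fold change is a difference of log2(signal + 16), which understates the change of dim probe sets. A probe set was tested with limma where it read above 60.2, the table's median, on at least 4 arrays, and p-values were adjusted over all 28704 such probe sets. Of the 21 probe sets 18 were tested. The VWF probe set MmugDNA.8805.1.S1_at (highest signal 51.3) and the PROX1 probe sets MmugDNA.22195.1.S1_at and MmuSTS.3409.1.S1_at (highest 5.99 and 21.7) did not exceed the median on any array. The TEK probe set MmugDNA.766.1.S1_at passed through 2 tibolone and 2 control arrays alone, so its differences from the other groups were favoured by the filter. Each gene is described by its probe set of highest mean signal, and probe sets of 1 gene share a target. VWF, CLDN5, EGFL7, RAMP2 and MMRN1 have 1 tested probe set each.

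The arrays fall into sets by their added control RNAs, the poly-A spike-ins dap and thr, and the labels do not say what the sets are. The sets were split at the widest gap in the mean log2 thr signal. In 6 arrays, here the low set, thr lay lower, and so did dap: CEE+MPA replicates 1 and 4, CEE replicates 1 and 2 and control replicates 3 and 4. The other 10 arrays, all 4 tibolone arrays among them, form the high set. The mean log2 dap signal was 7.57 to 7.75 on tibolone arrays, against 6.97 to 7.29 on low-set arrays and 7.85 to 8.40 on the high-set arrays of the other groups. For thr it was 6.42 to 6.61 on tibolone arrays, 5.93 to 6.23 on low-set arrays and 6.74 to 7.15 on the other high-set arrays. Tibolone arrays are thus not matched to the other high-set arrays on the signal that defines the sets, and this holds for each tibolone value given within the high set. The log2 ratio of 3′ to 5′ GAPDH signal, which rises as RNA degrades or is copied incompletely, ran between 0.68 and 0.86 on high-set arrays of CEE+MPA, CEE and control animals, against 0.04 to 0.26 on low-set arrays, and between 0.11 and 0.92 with tibolone. Between the sets 2.41% of all probe sets differed at an adjusted p under 0.05 in limma, and 0 of the 18 endothelial ones did. The same test at an unadjusted p under 0.05 held for 8 of the 18, and for 17% of all probe sets. Of those, VWF, EGFL7 and CLDN5 read higher in the high set, by 0.55, 0.50 and 0.38 (log2, groups in the model). The others read lower there: LYVE1 MmugDNA.30026.1.S1_at by 0.62, MmugDNA.19939.1.S1_s_at by 0.59 and MmugDNA.19939.1.S1_at by 0.93. PROX1 MmugDNA.22007.1.S1_at was lower by 0.98 and EMCN MmugDNA.16107.1.S1_at by 0.63. Skeletal muscle markers were high on tibolone replicates 2 and 3, CEE+MPA replicate 1 and control replicate 1. Signal of luminal epithelial genes was strong in all groups, although CDH1, a defining epithelial gene, did not exceed the median on any array.

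The mean signal was lowest with CEE+MPA in 8 of the 10 genes and lowest with CEE in the other 2, EGFL7 and PROX1. It was highest in controls in 6 genes and highest with tibolone in 4. Past the threshold, CEE+MPA differed from controls in 3 genes and tibolone from CEE+MPA in 2, while tibolone did not differ from controls, nor CEE from any group, in any of the 10. RAMP2, the adrenomedullin receptor partner, is the clearest blood vessel case (MmuSTS.2342.1.S1_at). Its signals were 873, 693, 889 and 1047 with CEE+MPA, against 1574, 1931, 1287 and 1129 in controls. All 4 CEE+MPA arrays lay below all 4 control arrays, and RAMP2 fell by 0.73 on the log2 scale (SE 0.19, adjusted p = 0.0349 by limma, n = 4 each). The mean signal was 875 ± 145 with CEE+MPA and 1480.4 ± 352 in controls (SD). Within the high set RAMP2 differed by -1.14 (limma adjusted p = 0.0269, 2 arrays against 2), and within the low set by -0.33 (limma adjusted p = 0.690).

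**Figure D1:**
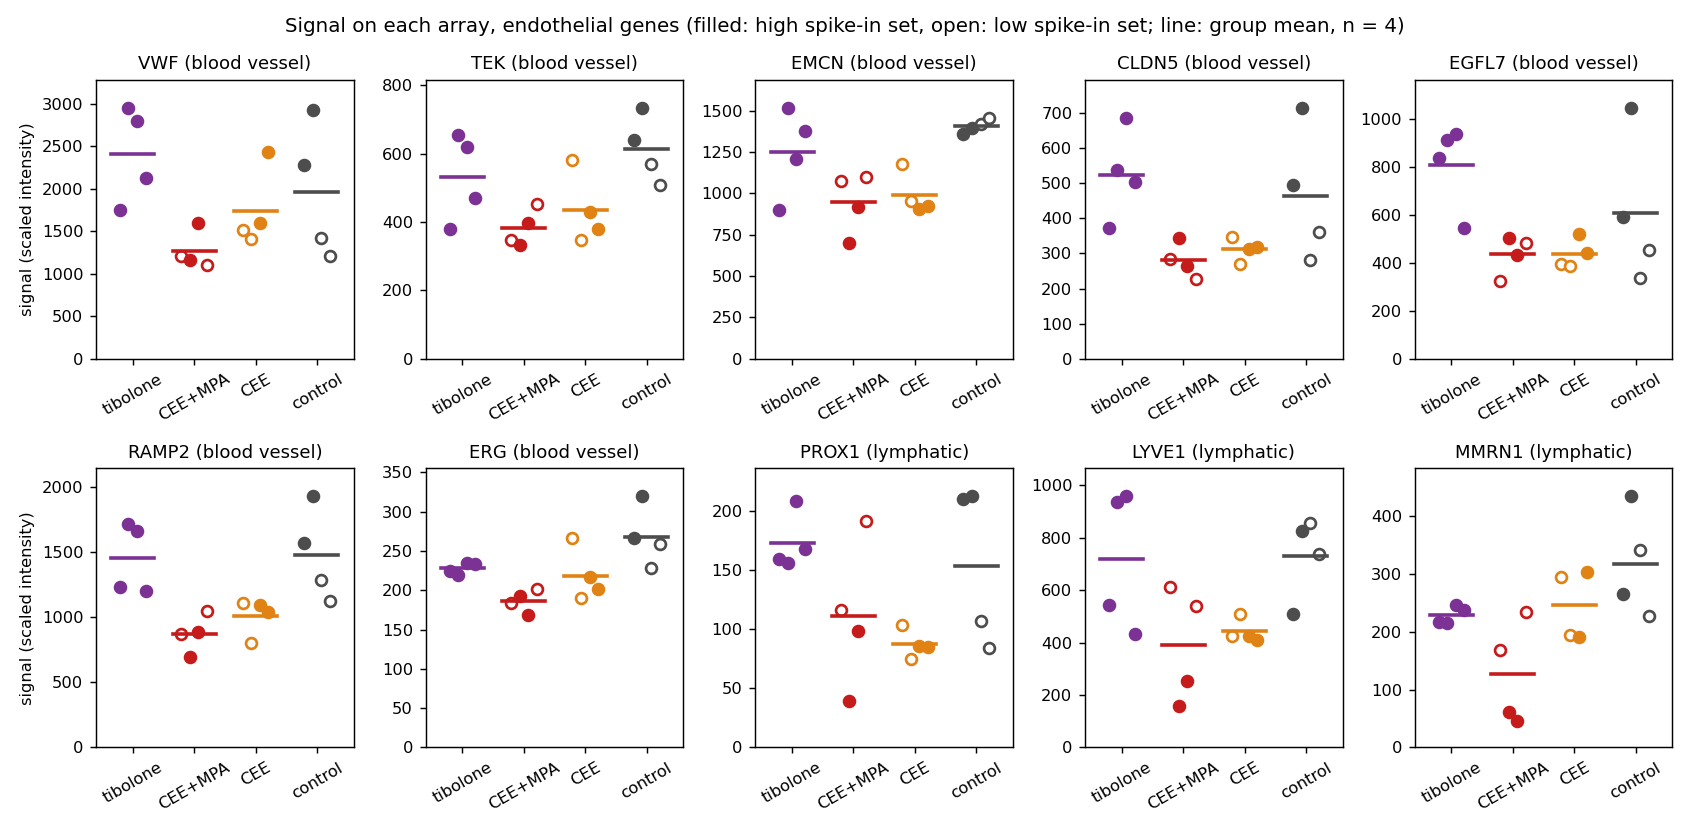
Signal on each array (linear scale from 0) of the probe set that stands for each gene, by group, with a line at the mean of 4 arrays; filled points are high spike-in set arrays and open points low-set arrays. RAMP2 and ERG have all 4 CEE+MPA points below all 4 control points, and MMRN1 has its lowest 2 points, 61.1 and 45.1, on the filled CEE+MPA arrays.

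ERG, the endothelial transcription factor, had signals of 183, 192, 169 and 201 with CEE+MPA, against 266, 319, 228 and 259 in controls (MmugDNA.23850.1.S1_at). The groups did not overlap, and ERG fell by 0.48 (log2, SE 0.13, adjusted p = 0.0394 by limma). ERG passed in neither spike-in set alone, at -0.65 in the high set and -0.31 in the low set (limma adjusted p = 0.0550 and 0.596). The call was also lost with quantile normalization and with median centring (limma adjusted p = 0.0776 and 0.0662). The other ERG probe sets lay in the same direction without passing: MmugDNA.27116.1.S1_at differed by -0.32 (limma adjusted p = 0.170) and MmugDNA.30174.1.S1_at by -0.38 (0.220). TEK, the angiopoietin receptor, had 347, 332, 397 and 451 with CEE+MPA, against 638, 734, 570.0 and 508 in controls (MmuSTS.1184.1.S1_at). Its groups did not overlap either, with a difference of -0.66 ± 0.19 (SE) that missed the threshold at a limma adjusted p of 0.0557. The second TEK probe set, the one favoured by the filter, differed by -0.48 (limma adjusted p = 0.126).

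EMCN, the sialomucin, has 3 tested probe sets. MmugDNA.41909.1.S1_at had 1073, 702, 920.0 and 1099.9 with CEE+MPA and 1359, 1399, 1421 and 1454 in controls, the tightest control group among these genes relative to its mean. No CEE+MPA array reached the lowest control, and the difference of -0.58 ± 0.17 had a limma adjusted p of 0.0546, just above the threshold. The other EMCN probe sets, MmugDNA.16107.1.S1_at and MmugDNA.16324.1.S1_at, differed by -0.61 and -0.56 (limma adjusted p = 0.190 and 0.163), with overlapping groups. On MmugDNA.16324.1.S1_at high-set CEE+MPA replicates 2 and 3 read 271 and 333, and low-set replicates 1 and 4 read 587 and 659.8. Within the high set this probe set differed from controls by -1.22 (limma adjusted p = 0.0147). Its effect in the high set minus that in the low set was -1.32 (unadjusted p = 6.51e-04, limma adjusted p = 0.768).

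CLDN5, the tight junction protein, had 285, 345, 264 and 228 with CEE+MPA, against 496, 716, 283 and 362 in controls. The groups overlapped through control replicate 3, and the difference was -0.63 ± 0.24 (limma adjusted p = 0.123). The secreted proteins differed less clearly from controls. VWF had 1204, 1158, 1594 and 1103 with CEE+MPA, against 2280.2, 2929, 1415 and 1203 in controls, and EGFL7 325, 503, 433 and 483 against 592, 1046, 335 and 453. In both genes control replicates 1 and 2, of the high set, lay above all CEE+MPA arrays and control replicates 3 and 4, of the low set, lay among them. The differences were -0.55 ± 0.27 for VWF and -0.36 ± 0.27 for EGFL7 (limma adjusted p = 0.220 and 0.467).

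Among lymphatic genes MMRN1, the multimerin, fell with CEE+MPA. Its signals were 168, 61.1, 45.1 and 234 with CEE+MPA, against 266, 434, 342 and 228 in controls (MmuSTS.1522.1.S1_at). CEE+MPA replicate 4 overlapped the controls, while replicates 2 and 3 were far below every other array of the study. The change was -1.42 ± 0.35 (log2, SE, adjusted p = 0.0308 by limma), the largest among the 18 probe sets in this comparison. Both of the lowest arrays are of the high set. Within that set MMRN1 differed by -2.37 (limma adjusted p = 0.00809), and within the low set by -0.46 (limma adjusted p = 0.658). The difference between these effects, high minus low, was -1.92 ± 0.43 with an unadjusted p of 6.67e-04 and a limma adjusted p of 0.768, and 0 of 28704 probe sets passed that test.

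LYVE1, the hyaluronan receptor, showed the same arrays low. MmugDNA.30026.1.S1_at had 611, 159, 255 and 539.9 with CEE+MPA, against 509, 824, 855 and 737 in controls. CEE+MPA replicates 2 and 3 lay below all controls and replicates 1 and 4 overlapped them, and the difference of -1.03 ± 0.35 had a limma adjusted p of 0.0858. The other LYVE1 probe sets, MmugDNA.19939.1.S1_s_at and MmugDNA.19939.1.S1_at, which their names mark as made for 1 target sequence, differed by -0.53 and -1.13 (limma adjusted p = 0.305 and 0.151). PROX1, the lymphatic transcription factor, had 116, 39.4, 98.8 and 191 with CEE+MPA, against 210.0, 212, 107 and 84.1 in controls (MmugDNA.13543.1.S1_at). Its highest CEE+MPA array, replicate 4, was close to the highest controls and its lowest, replicate 2, was below all of them. This probe set differed by -0.47 ± 0.33 over all arrays (limma adjusted p = 0.424). It differed by -1.51 within the high set (0.0257) and by 0.58 within the low set (0.576), so its direction was opposite in the sets. The difference between those effects was -2.09 (unadjusted p = 4.28e-04, limma adjusted p = 0.723). The second tested PROX1 probe set, MmugDNA.22007.1.S1_at, differed by -0.62 over all arrays (limma adjusted p = 0.490) and did not reverse. Its mean was lower with CEE+MPA than in controls in both sets, 165 against 192 in the low set and 51.4 against 109 in the high set.

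In all, 3 of the 18 tested probe sets passed in CEE+MPA against control, all lower, where 6.34% of all probe sets passed in either direction and 4.38% were lower. Fold changes lay below 0 for all 18, 12 had an unadjusted p under 0.05 and were lower (13.7% of all probe sets), and 5 had every CEE+MPA array below every control (9.42%). These counts include the TEK probe set favoured by the filter; without it 11 of 17 had an unadjusted p under 0.05 and were lower. The median over the 10 genes was -0.60, with -0.58 over blood vessel and -1.03 over lymphatic genes, against 0.01 over all 10452 genes. Each of the 3 calls was lost in some of the fits that left out 1 array, while the fold changes stayed below 0. Some losses came with a nearly unchanged fold change, as for ERG without control replicate 1, at -0.48. The RAMP2 call was lost in 5 of 8 fits that left out 1 array (control replicates 1 and 2, CEE+MPA replicates 1, 2 and 3), with a highest adjusted p of 0.125 by limma, and fold changes between -0.85 and -0.60. The ERG call was lost in 6 of 8 (control replicates 1, 2 and 4, CEE+MPA replicates 1, 2 and 3; highest 0.141 by limma), and the MMRN1 call in 5 of 8 (control replicates 1, 2 and 3, CEE+MPA replicates 2 and 3; highest 0.108 by limma). In the fits that lacked replicate 2 of either group, the first control or the third CEE+MPA replicate, 0 of the 18 probe sets passed.

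**Figure D2:**
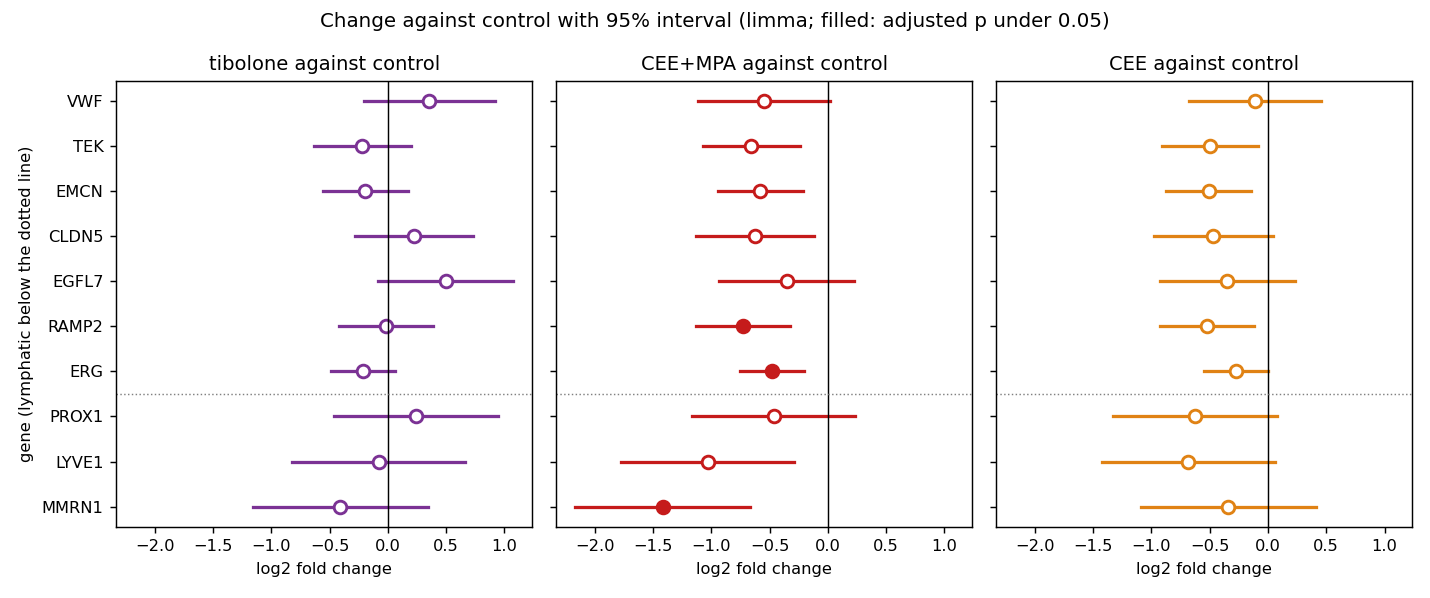
Log2 fold change against control (horizontal axis) of the 10 genes, with 95% intervals from limma, for tibolone, CEE+MPA and CEE; filled points passed an adjusted p of 0.05. The filled points are RAMP2 at -0.73, ERG at -0.48 and MMRN1 at -1.42, all for CEE+MPA, while the tibolone points lie on both sides of 0.

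With CEE alone, the fold changes of all 18 probe sets against control lay below 0, and no gene passed. Of the 18 probe sets 0 had an adjusted p under 0.05 in limma (0.0732% of all 28704 did), and 5 had an unadjusted p under 0.05, all lower and all of blood vessel genes (6.85% of all probe sets were lower by that measure). The clearest was 1 of the 3 EMCN probe sets, MmugDNA.41909.1.S1_at, which read 1181, 954, 908 and 922 with CEE, against 1359, 1399, 1421 and 1454 in controls. No array of the groups overlapped, and the difference was -0.51 ± 0.17 (limma adjusted p = 0.267). On the other EMCN probe sets the groups overlapped, with -0.56 for MmugDNA.16107.1.S1_at and -0.20 for MmugDNA.16324.1.S1_at (limma adjusted p = 0.418 and 0.780). RAMP2 read 1113, 805, 1094 and 1039 with CEE, all below the lowest control, and differed by -0.52 ± 0.19 (limma adjusted p = 0.290). TEK differed by -0.50 and CLDN5 by -0.47, while VWF, at -0.11, was closest to the controls. Of the lymphatic genes LYVE1 read 424.3, 509.0, 426.6 and 410.6 with CEE, all below the lowest control of 509.3 (difference -0.68 ± 0.35, limma adjusted p = 0.448), PROX1 differed by -0.63 and MMRN1 by -0.34. On the other LYVE1 probe sets, MmugDNA.19939.1.S1_s_at and MmugDNA.19939.1.S1_at, the groups overlapped, at -0.43 and -0.82 (limma adjusted p = 0.587 and 0.491). The median over the 10 genes was -0.48, against 0.01 over all genes. In 3 probe sets no array of the groups overlapped, 1 each of EMCN, RAMP2 and LYVE1, with 4.74% of all probe sets lower in this way. Markers of several other cells lay lower with CEE as well, with 0 calls in limma. The median fold change was -0.68 over 10 macrophage genes (6 lower at an unadjusted p under 0.05) and -0.81 over 10 adipocyte genes (3 lower). It was -0.40 over 9 smooth muscle genes (3 lower) and 10 fibroblast genes (4 lower, 1 higher), and -1.30 over 10 skeletal muscle genes (3 lower). Over 4 platelet genes it was -0.68 (2 lower). Pericyte and luminal epithelial genes were close to controls, at -0.05 over 8 genes (1 lower) and 0.01 over 11 (2 lower). The summed macrophage signal ran from 9137 to 16177 with CEE and from 14163 to 18309 in controls, and that of adipocyte genes from 17945 to 34449.8 with CEE and from 25722 to 45785 in controls. Smooth muscle genes summed to 17477 to 19510.1 with CEE and 19487 to 26424 in controls, fibroblast genes to 50984 to 65772 and 64870.2 to 79945, and skeletal muscle genes to 536 to 785 with CEE and 913 to 15751 in controls. Their part in the endothelial values was not tested.

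Tibolone arrays did not separate from controls for any endothelial gene. In limma 0 of the 18 probe sets passed (0.0244% of all did), 0 had an unadjusted p under 0.05 (5.41% of all), and 7 fold changes lay above and 11 below 0. EGFL7 read 836, 911, 936 and 546 with tibolone, against 592, 1046, 335 and 453 in controls, and its difference of 0.50 (95% interval -0.08 to 1.08) was the highest. MMRN1 read 217, 215, 245 and 237, against 266, 434, 342 and 228 in controls, and had the lowest, -0.41 (-1.16 to 0.34). For RAMP2 the interval ran from -0.42 to 0.39 and for ERG from -0.48 to 0.06, so with 4 arrays a group differences within those bounds are not excluded. All tibolone arrays are of the high set, and the controls are divided between the sets. Within the high set, with 2 controls, 0 of the 18 probe sets passed too (0.00697% of all).

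RAMP2 and CLDN5 were higher in tibolone than in CEE+MPA mammary tissue over all arrays. All tibolone arrays are of the high set, and the CEE+MPA arrays are divided between the sets. RAMP2 read 1235, 1719, 1668 and 1201 with tibolone, against 873, 693, 889 and 1047 with CEE+MPA. CLDN5 read 371, 538, 685 and 503 with tibolone, against 285, 345, 264 and 228 with CEE+MPA. In neither gene did the groups overlap, and RAMP2 rose by 0.72 ± 0.19 and CLDN5 by 0.85 ± 0.24 (log2, SE, adjusted p = 0.0391 and 0.0468 by limma, n = 4 each). These were 2 of 18 probe sets, where 6.34% of all probe sets passed in either direction and 3.78% were higher. VWF read 1746, 2954, 2798 and 2128 with tibolone, against 1204, 1158, 1594 and 1103 with CEE+MPA, and EGFL7 836, 911, 936 and 546 against 325, 503, 433 and 483. Neither overlapped, with differences of 0.90 and 0.85, and both missed the threshold (limma adjusted p = 0.0538 and 0.0720). The lymphatic genes differed by 1.01 for MMRN1, 0.95 for LYVE1 and 0.71 for PROX1 (limma adjusted p = 0.0944, 0.108 and 0.195), with overlapping groups. Markers of some other cells were higher too. Smooth muscle genes were so in 7 of 9 (median 1.06, summed signal 15622 to 26179 with tibolone, 8236 to 14557 with CEE+MPA). Fibroblast genes were higher in 3 of 10 (62915 to 67759 and 50553 to 64964) and adipocyte genes in 2 of 10 (17145 to 49935 and 21791 to 36679), with 0 lower in these lists. The fibroblast and the adipocyte sums overlapped. Pericyte genes passed in 0 of 8 and macrophage genes in 0 of 10. Of 11 luminal epithelial genes 1 was higher, and 3 were lower at an unadjusted p under 0.05 in limma without passing. Skeletal muscle genes passed in 0 of 10 in limma, where 0 had an unadjusted p under 0.05. The 11 with a probe set summed to 898 to 12398 with tibolone and 677 to 5401 with CEE+MPA. The part of these cells in the values was not tested.

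All 18 fold changes of tibolone against CEE+MPA lay above 0, 13 with an unadjusted p under 0.05 (14.6% of all probe sets were higher by that measure), and 5 probe sets did not overlap (7.56%). Without the TEK probe set favoured by the filter, the second of these counts was 12 of 17. The RAMP2 call was lost in 5 of 8 fits without 1 array (tibolone replicates 2 and 3, CEE+MPA replicates 1, 2 and 3; highest adjusted p 0.118 by limma) and the CLDN5 call in 6 of 8 (tibolone replicates 2 and 3 and each CEE+MPA replicate; highest 0.136 by limma). Without tibolone replicate 1 or without tibolone replicate 4, 4 of the 18 passed, and without tibolone replicate 2 or 3 or CEE+MPA replicate 1, 2 or 3, 0 did. When the sets entered as a block, 0 passed, with RAMP2 at 0.65 and CLDN5 at 0.66 (limma adjusted p = 0.0894 and 0.118). Among high-set arrays 5 passed, of EMCN, MMRN1, PROX1 and, with 2 probe sets, LYVE1, all higher. RAMP2 and CLDN5 did not pass among those arrays, at 0.86 and 0.73 (limma adjusted p = 0.0537 and 0.111). In that fit over high-set arrays, with 2 of the CEE+MPA group, 1.96% of all probe sets passed and 1.48% were higher. Without the 4 arrays of high skeletal muscle signal 0 passed and RAMP2 differed by 0.49. This comparison and that of CEE+MPA against control share the CEE+MPA arrays, so their values are not independent of each other.

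Tibolone against CEE gave the same direction with no call: 0 of 18 probe sets passed in limma (0.00697% of all did), 17 fold changes lay above 0, and 6 had an unadjusted p under 0.05 and were higher (6.22% of all). PROX1 read 159, 156, 209 and 167 with tibolone, against 104, 74.4, 86.0 and 85.1 with CEE, without overlap, and its second probe set, MmugDNA.22007.1.S1_at, did not overlap either. Their differences were 0.87 ± 0.33 and 1.10 ± 0.50 (limma adjusted p = 0.338 and 0.405). EGFL7, RAMP2 and CLDN5 were the other 3 of 5 probe sets without overlap (2.83% of all), at 0.85, 0.51 and 0.69. All tibolone arrays are of the high set, and CEE arrays are of both sets. Median fold changes were 1.81 over 10 skeletal muscle genes, 0.75 over 10 adipocyte genes and 0.58 over 10 macrophage genes. Of these 5, 2 and 5 were higher at an unadjusted p under 0.05 in limma. Medians were 0.39 over smooth muscle, 0.12 over fibroblast, 0.04 over luminal epithelial and -0.08 over pericyte genes. The part of these cells was not tested. Adding MPA to CEE, the contrast that tests the progestin, moved 0 of 18 probe sets past the threshold (0.0209% of all passed), with 15 of 18 fold changes below 0. MMRN1 was the 1 probe set with an unadjusted p under 0.05 (5.27% of all were lower by that measure), at -1.08 ± 0.35 (unadjusted p = 0.00786, limma adjusted p = 0.468); its signals were 168, 61.1, 45.1 and 234 with CEE+MPA, against 295, 194, 191 and 303 with CEE. Its lower values lay on CEE+MPA replicates 2 and 3, and replicate 4 was inside the CEE range.

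**Figure D3:**
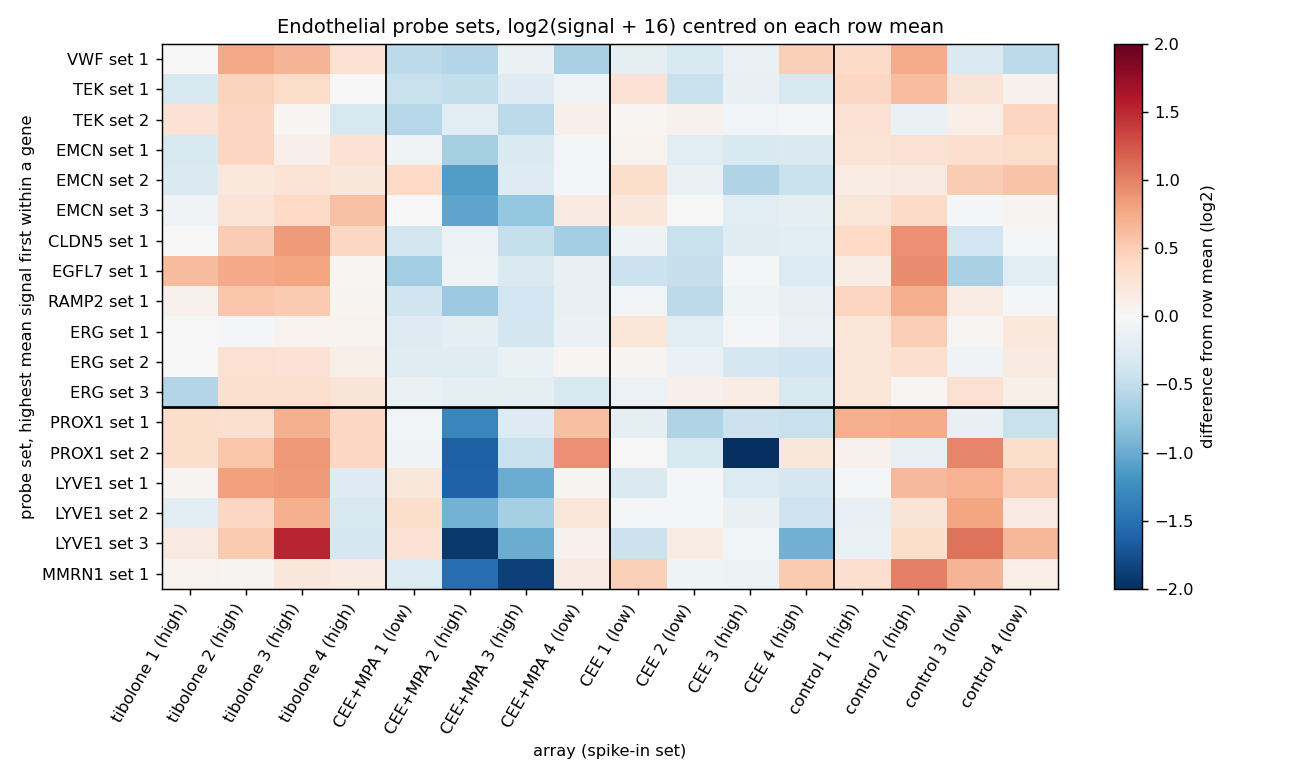
The 18 tested probe sets (rows, blood vessel genes above the line) on the 16 arrays (columns, with the spike-in set), coloured by the difference from the row mean of log2(signal + 16) on a scale from -2 to 2. The CEE+MPA columns of replicates 2 and 3 are blue in all 6 lymphatic rows, while replicate 1 has both colours there and replicate 4 is white to red.

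The means of blood vessel and lymphatic genes parted most clearly within the CEE+MPA group. After each gene was centred on its average of all 16 arrays, the mean of the 7 blood vessel genes was between -0.41 and -0.26 on all 4 CEE+MPA arrays. The mean of the 3 lymphatic genes was -1.49 and -1.04 on CEE+MPA replicates 2 and 3, of the high set, and -0.03 and 0.27 on replicates 1 and 4, of the low set. So the blood vessel mean was low on every CEE+MPA array, and the lymphatic mean on 2 of 4. The blood vessel mean takes 1 probe set per gene, for EMCN MmugDNA.41909.1.S1_at. Among blood vessel genes only EMCN had CEE+MPA replicates 2 and 3 as the lower 2 of that group, on all 3 of its probe sets. On the one in the mean they read 702 and 920, against 1073 and 1099.9 on replicates 1 and 4. On MmugDNA.16107.1.S1_at they read 299 and 551, against 883 and 651, and on MmugDNA.16324.1.S1_at 271 and 333, against 587 and 659.8. Low values on those 2 arrays were thus not confined to lymphatic probe sets. In controls the lymphatic mean ran from 0.05 to 0.80 and the blood vessel mean from -0.08 to 0.68, with control replicates 1 and 2, of the high set, above replicates 3 and 4 in blood vessel genes. Tibolone arrays ran from 0.01 to 0.49 in blood vessel genes and from 0.11 to 0.60 in lymphatic genes, above every CEE and CEE+MPA array in the first. CEE arrays ran from -0.37 to -0.03 and from -0.27 to 0.00. Across the 16 arrays, which share their groups and sets, the median Pearson r between 2 blood vessel genes was 0.74 over 21 pairs, between 2 lymphatic genes 0.63 over 3 pairs, and between one of each 0.59 over 21 pairs. Among the 6 low-set arrays those medians were 0.37, 0.09 and 0.20, and among the 10 high-set arrays 0.81, 0.77 and 0.78. The part of the set in these values was not tested beyond the comparisons above.

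**Figure D4:**
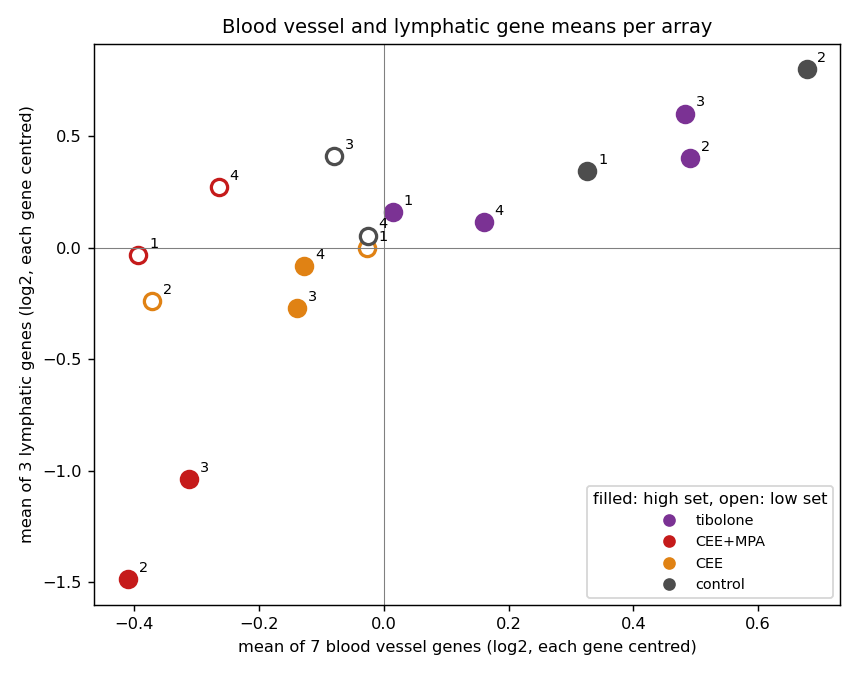
Mean of the 7 blood vessel genes (horizontal) against the mean of the 3 lymphatic genes (vertical) on each array, in log2 units with each gene centred; numbers are replicates, filled points high-set and open points low-set arrays. CEE+MPA replicates 2 and 3 stand at -1.49 and -1.04 on the vertical axis, and all CEE+MPA points lie left of 0.

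Of 53 further genes of blood endothelium 40 had a probe set and 34 a tested one, while KDR, MMRN2 and CALCRL, the receptor that RAMP2 serves, did not exceed the median on any array. With CEE+MPA 5 of the 34 were lower than in controls and 0 higher, with a median of -0.38. Of all probe sets 4.38% were lower past the threshold in this comparison. PALMD, a palmdelphin of endothelium and heart valve, averaged 248 ± 84.1 with CEE+MPA and 873 ± 161 in controls (SD, n = 4 each) and fell by 1.78 (limma adjusted p = 0.00198). SELP, the P-selectin by which activated venules and platelets catch leukocytes, averaged 96.6 ± 10.02 with CEE+MPA and 360.2 ± 125 in controls and fell by 1.68 (0.00430, limma). ACKR1, the chemokine receptor that marks venules, averaged 597 ± 142 with CEE+MPA and 1779 ± 729 in controls and fell by 1.48 (0.0188, limma). Their groups did not overlap. GJA5, a connexin of arterial endothelium, fell by 0.92 (0.0349, limma) and SOX7, an endothelial transcription factor, by 0.57 (0.0388, limma). The general endothelial genes PECAM1, at -0.30, and CDH5, at -0.40, did not pass (0.367 and 0.180, limma).

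The PALMD and SELP calls held in each of the 8 fits without 1 array, with highest adjusted p of 0.0138 and 0.0208 by limma, and missed the threshold within the low set (fold changes -1.59 and -1.29). ACKR1 was lost in 4 of 8 (control replicates 1 and 2, CEE+MPA replicates 2 and 3), SOX7 in 5 (control replicates 2 and 4, CEE+MPA replicates 1, 2 and 3) and GJA5 in 7, all but the fit without control replicate 4. Leaving out 1 array gave between 2 and 5 of the 34 genes lower, with 2 in the fits that lacked CEE+MPA replicate 2, CEE+MPA replicate 3 or control replicate 2. In tibolone against CEE+MPA 4 of the 34 were higher, PALMD by 1.34, ACKR1 by 1.24, SELP by 1.18 and GJA5 by 1.09 (limma adjusted p = 0.00922, 0.0391, 0.0232 and 0.0223). Of all probe sets 3.78% were higher past the threshold there. Fits that left out 1 array gave between 1 (without tibolone replicate 2 or 3 or CEE+MPA replicate 3) and 7 (without tibolone replicate 4). The PALMD call held in each of the 8, those of SELP and GJA5 were lost in the 3 fits that gave 1 gene, and that of ACKR1 in 7, all but the fit without tibolone replicate 4. With the sets as a block 2 of the 34 passed, within the high set 1, and with the groups compared alone or without the 4 arrays of high skeletal muscle signal 0. With CEE 0 of the 34 passed against control in limma and 4 had an unadjusted p under 0.05, all lower. By that measure 6.85% of all probe sets were lower. With tibolone 0 passed and 1 had an unadjusted p under 0.05 (5.41% of all probe sets, in either direction). PALMD and SELP differed by -1.21 and -1.31 with CEE (limma adjusted p = 0.0626 and 0.0683) and by -0.44 and -0.50 with tibolone (0.913 and 0.913). These 3 comparisons share the control arrays.

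The further lymphatic list was thinner: 14 of 19 genes had a probe set and 9 a tested one, with FLT4, FOXC2, GPR182, NRP2 and PDE7B never above the median. Against control 0 of the 9 passed in limma with any treatment, with 3 lower and 0 higher at an unadjusted p under 0.05 for CEE+MPA. By that measure 13.7% of all probe sets were lower with CEE+MPA. NR2F2, a nuclear receptor of venous and lymphatic endothelium, averaged 2063 ± 251 with tibolone and 1246 ± 182 with CEE+MPA and was higher by 0.72 (limma adjusted p = 0.0430), a call lost in each of the 8 fits without 1 array. CCL21, the lymphatic chemokine for CCR7-bearing cells, averaged 299 ± 95.3 with CEE+MPA and 944 ± 253 in controls, with a difference of -1.62 ± 0.57 that did not pass (0.0974, limma). The smallest p-values against control fell to CEE: TFF3, which glandular epithelium also secretes, averaged 1461 ± 1274 with CEE and 140.2 ± 111 in controls (2.97 ± 0.66, limma adjusted p = 0.103). SEMA3D differed by 0.58 and STAB1, a scavenger receptor also of macrophages, by -0.83 (0.207 and 0.238, limma).

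Among 13 tested genes of vascular growth factors and their modulators, 2 fell with CEE+MPA against control, and both are inhibitors of vessel growth. Past the threshold 4.38% of all probe sets were lower in that comparison. THBS2, a thrombospondin, averaged 732 ± 396 with CEE+MPA and 2567 ± 817 in controls and fell by 1.90 (limma adjusted p = 0.0184). ADAMTS1, a secreted protease that binds VEGF, averaged 616 ± 114 with CEE+MPA and 1372 ± 213 in controls and fell by 1.14 (0.0438, limma). THBS2 is also made by fibroblasts, whose markers are described below. The THBS2 call was lost when CEE+MPA replicate 2, CEE+MPA replicate 3 or control replicate 2 was left out, and the ADAMTS1 call in each of the 8 fits without 1 array. NRP1, a VEGF co-receptor, differed by -0.55 (0.135, limma), and ADM, the ligand of the RAMP2 receptor, by -0.80 (0.184, limma). THBS2 and ADAMTS1 were also the 2 of 13 that were higher in tibolone against CEE+MPA, by 1.52 and 1.18 (limma adjusted p = 0.0442 and 0.0405). Of all probe sets 3.78% were higher there. Both calls were lost without any 1 of tibolone replicates 1, 2 and 3 and CEE+MPA replicates 1, 2 and 3. The ADAMTS1 call was also lost without CEE+MPA replicate 4.

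**Figure D5:**
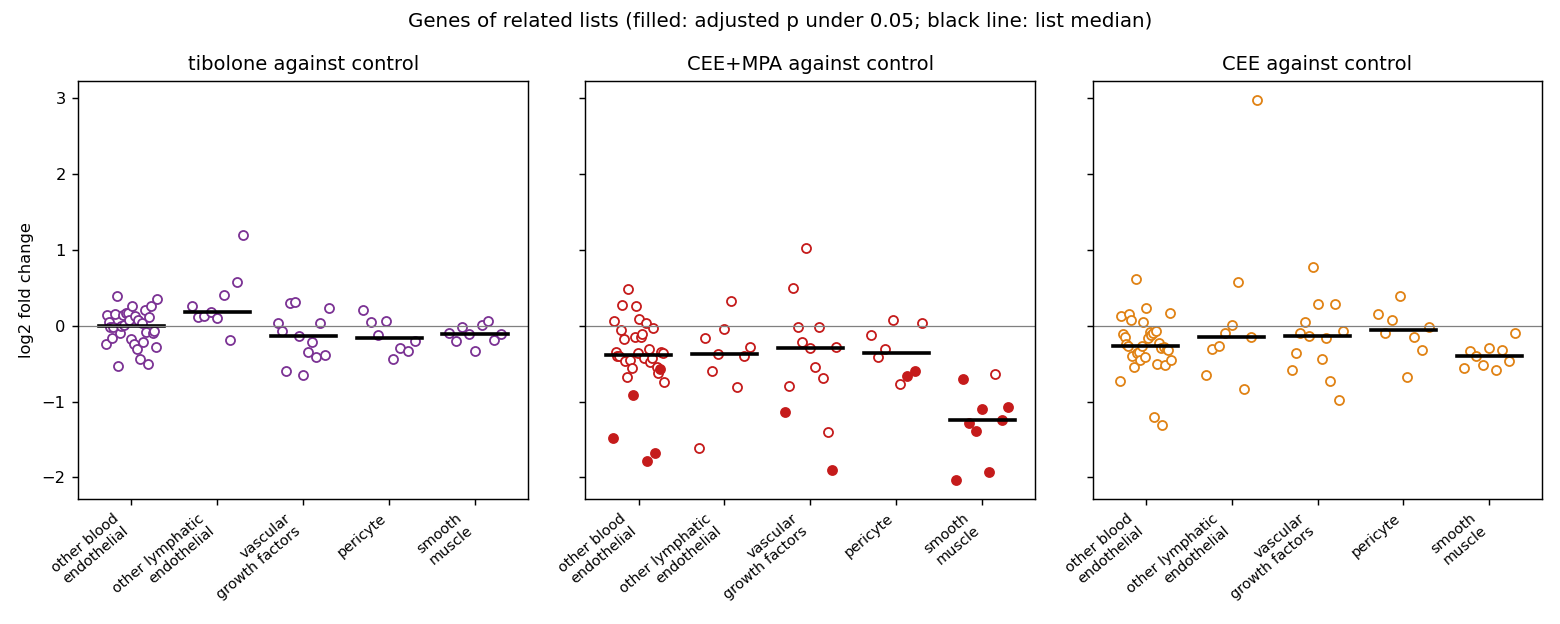
Log2 fold change against control (vertical axis) of each tested gene in 5 related lists, for tibolone, CEE+MPA and CEE; filled points passed an adjusted p of 0.05 in limma and black lines are list medians. Filled points appear for CEE+MPA alone, 5 in other blood endothelial genes, 2 each in growth factors and pericyte genes and 8 of 9 in smooth muscle genes. Of all probe sets 4.38% were lower past the threshold with CEE+MPA.

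Of 8 pericyte genes 2 fell with CEE+MPA against control, MCAM (CD146), which endothelium also carries, by 0.66 and NDUFA4L2 by 0.59 (limma adjusted p = 0.0213 and 0.0363). For this list and those below, 6.34% of all probe sets passed in this comparison in either direction, and 4.38% were lower. At an unadjusted p under 0.05 13.7% were lower. The MCAM call was lost when replicate 2 or 3 of either group was left out, and the NDUFA4L2 call in 6 of 8 such fits, all but those that lacked CEE+MPA replicate 1 or control replicate 3. Smooth muscle genes, of vessel walls and other muscle, were lower in 8 of 9, with a median of -1.24 and a summed signal between 8236 and 14557 with CEE+MPA, against 19487 to 26424 in controls. Fibroblast genes were lower in 4 of 10 (summed signal 50553 to 64964 with CEE+MPA, 64870.2 to 79945 in controls) and adipocyte genes in 2 of 10 (21791 to 36679 and 25722 to 45785). Of 11 luminal epithelial genes 1 passed, KRT19, which was higher at 0.63 (limma adjusted p = 0.0409), and 4 were lower at an unadjusted p under 0.05 without passing (KRT7, KRT8, KRT18 and CLDN4). The summed signal of the 13 luminal genes with a probe set, tested or not, ran from 36614 to 42888 with CEE+MPA and from 31732 to 35723 in controls. KRT19 alone averaged 22000 with CEE+MPA and 14237 in controls, so it weighs heavily in that sum. Macrophage genes, which bear on LYVE1 and STAB1, passed in 0 of 10 (median -0.63, 6 lower and 2 higher at an unadjusted p under 0.05 in limma). The 12 with a probe set summed to 14335 to 16768 with CEE+MPA and 14163 to 18309 in controls. Platelet genes, which bear on VWF, MMRN1 and SELP, passed in 0 of 4 (2 lower at an unadjusted p under 0.05 in limma), and GP9, GP1BA and TUBB1 did not exceed the median on any array. The summed signal of the 7 platelet genes with a probe set ran from 203 to 354 with CEE+MPA and from 279 to 799 in controls. What part these cells have in the endothelial values was not tested.

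Outside the 10 genes, those whose log2 signals followed the blood vessel mean most closely over the 16 arrays, of 10442 genes, were FAM110D (Pearson r = 0.94), NOX5 (0.94), ADCY4 (0.94), LAMB2 (0.93) and GLUL (0.92). Within the low set of 6 arrays r was 0.97 for FAM110D, 0.78 for NOX5, 0.79 for ADCY4, 0.65 for LAMB2 and 0.77 for GLUL, and in the high set of 10 it was between 0.93 and 0.96. The lymphatic mean was followed most closely by PMP22 (0.93), FLRT2 (0.93), FBLN5 (0.92), ADIRF (0.92) and MXRA8 (0.91). In the low set these had an r of 0.25, 0.57, 0.69, 0.60 and 0.65, and in the high set between 0.95 and 0.99, so the likeness of PMP22 rests on high-set arrays. The arrays share groups and sets, and the values describe these 16 arrays alone.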

How the data were processed

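RNA of mammary tissue was hybridised to 1 Affymetrix rhesus array per animal. Per the submitters' processing notes the arrays were processed with GCOS and Affymetrix Expression Console; no source used here gives versions, settings or a genome build. The deposited values are linear intensity values per probe set, and their mean after trimming 2% at each end was 250.01 to 250.02 on every array, so the authors' table is scaled to a common mean. No further normalization was applied to it. Arrays carry no read depth, and their number limits the precision.

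Of 52865 probe sets, 99 controls were left out and 28704 tested. The platform annotation, which can be old, gives 24969 probe sets 1 symbol, 361 several and 27535 none; the 10 symbols were all found in RefSeq's cynomolgus gene table. Linear models with 4 group means were fitted to log2(signal + 16) in limma 3.58.1 (R 4.3.3) over all 16 arrays, 6 comparisons were tested, and p-values were adjusted by the Benjamini-Hochberg method with a threshold of 0.05. The procedure was tested on simulated data with known changes. Summaries used pandas 2.3.3 in Python 3.11.15. The members and all gene lists were chosen with earlier results of these data known. For a gene with several probe sets the one of highest mean log2 signal stands for it. Summed signals of a list take every gene with a probe set, tested or not. From each list up to 4 genes with the smallest p among those past the threshold against control were chosen for naming, or 3 in the endothelial and growth factor lists where fewer passed; PECAM1, CDH5, ADM, CCL21, NR2F2, SOX7, KRT7, KRT8, KRT18 and CLDN4 were named after their values were seen. The 5 genes most like each member mean were taken by Pearson r. Alternatives were quantile normalization, median centring, offsets of 1 and 64, other filters, only the groups compared, a trended prior, array weights, the spike-in sets as a block or apart, a skeletal muscle covariate and leaving out each array. Of fits chosen after seeing the data, one left out 4 arrays of high skeletal muscle signal, one had the GAPDH ratio as a covariate and one compared effects between the sets; member counts without 1 TEK probe set were added likewise. Promoter and protein sequences were not analysed here.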

Additional observations from a re-analysis of the deposited data

Results flagged for a closer look

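In 2 of 72 groups of 4 arrays, 1 array stood apart from the other 3 by Dixon's test, where chance gives about 1 in 20. Both are tibolone replicate 1: it read 539 on the EMCN probe set MmugDNA.16107.1.S1_at, where the other tibolone arrays ran from 771 to 808, and 47.1 on the ERG probe set MmugDNA.30174.1.S1_at, where the others ran from 98.2 to 103. On the probe sets that stand for EMCN and ERG that array read 903 and 224, the lowest of 4 and the second lowest of 4 tibolone arrays, and did not stand apart by the same test.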

How the results depend on the processing

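The 0 counts for tibolone against control, CEE against control, CEE+MPA against CEE and tibolone against CEE stayed at 0 under every alternative run. For CEE+MPA against control, 3 probe sets passed. With an offset of 64, a trended prior or the high spike-in set alone 5 did, and with array weights or the GAPDH ratio 7. With the filter at the 75th percentile or the sets as a block 4 passed. With quantile normalization or median centring 2 did, RAMP2 and MMRN1, and the ERG call was lost. With the groups compared alone 1 passed (TEK), as did 1 without the 4 arrays of high skeletal muscle signal (LYVE1). Without a filter or within the low set 0 passed. For tibolone against CEE+MPA, 2 passed; 5 did within the high set, 4 with the GAPDH ratio, 1 with quantile normalization, an offset of 1 or array weights, and 0 with median centring, no filter, the groups compared alone, the sets as a block, the skeletal muscle covariate or without those 4 arrays. Leaving out 1 array gave 0 to 4 probe sets in the first and 0 to 4 in the second. The cause of these moves was not tested, except that fewer arrays or groups leave fewer degrees of freedom. Values of member probe sets under the alternatives numbered 2388, of which 2201 kept their direction and side of the threshold, 60 lost the threshold, 40 gained it, and 87 changed sign below the threshold, with 0 calls reversed. No paired analysis was possible because the replicate numbers follow the order of deposit and pair no animals. The tibolone group has no low-set array, so its comparisons were not run within that set.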
